A study of Mus musculus with 10 samples.

Results

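The alkaline phosphatases measured here were Alpi, Akp3 and Alpl, which are 3 of the 35275 genes listed and were found by their gene symbols. They were read from RNA sequencing of epithelial cells isolated from the jejunum of 10 mice on a C57BL/6 background, which all carried floxed Myo5b alleles and VillinCreERT2, a Cre recombinase that the villin promoter drives in intestinal epithelium and that acts only after tamoxifen. The 3 control mice (mice 2, 4 and 5) received corn oil and were not induced. The 4 MYO5B-knockout mice (mice 3, 5, 6 and 7) received 2 mg of tamoxifen and the vehicle, 0.1% BSA in PBS. The 3 LPA-treated MYO5B-knockout mice (mice 1, 4 and 5) received 2 mg of tamoxifen and 3 mg/kg of lysophosphatidic acid (LPA) intraperitoneally. Tissue was collected on day 4, and the labels describe adult males. Tamoxifen and loss of MYO5B cannot be told apart, because control mice received none. The labels of control mice list neither the BSA vehicle nor LPA. In comparisons with control mice, these injections therefore cannot be told apart from loss of MYO5B either.

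Alkaline phosphatases are zinc enzymes that are held on the outer face of the cell by a glycosylphosphatidylinositol (GPI) anchor and that remove phosphate groups from nucleotides, pyridoxal phosphate, lipopolysaccharide and other substrates. In mice, Alpi and Akp3 encode intestinal enzymes of the enterocyte brush border, and Akp3 is best known from the duodenum. Alpl encodes the tissue-nonspecific enzyme of bone, liver, kidney and neutrophils, which mineralizes the skeleton by clearing pyrophosphate. Alkaline phosphatase is widely used as a histochemical mark of a mature brush border, and MYO5B is a motor that carries recycling endosomes and their cargo to that surface.

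Alpi, Akp3 and their relative Alppl2 lie together on mouse chromosome 1 (GRCm38), whereas Alpl lies on chromosome 4. The deposited coordinates place Alpi (ENSMUSG00000079440) on the minus strand of chromosome 1 from 87098002 to 87101606 and Akp3 (ENSMUSG00000036500) on the plus strand from 87124973 to 87127912. The gap between both genes is 23.4 kb. Alppl2 (ENSMUSG00000026246), which encodes an embryonic and placental-like enzyme, lies on the minus strand from 87086694 to 87089928, and with the pseudogene Akp-ps1 the cluster of 4 genes spans 59.9 kb. Alpl (ENSMUSG00000028766) lies on the minus strand of chromosome 4 from 137741733 to 137796384.

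The promoters of the 3 clustered genes are shown because these neighboring genes share stretches of sequence there. The 170 bases before each RefSeq start (GRCm38.p6) read as follows, 5′ to 3′ on the strand of the gene. Capitals mark the 2 longest runs that all 3 have in common within 250 bases, TTCAGTTCACAGG and GGGTGGGGCCAGG, and the letters CAAAGTC, which are the core of the element that HNF4 factors bind.
Alpi, chr1:87101607-87101776, minus strand: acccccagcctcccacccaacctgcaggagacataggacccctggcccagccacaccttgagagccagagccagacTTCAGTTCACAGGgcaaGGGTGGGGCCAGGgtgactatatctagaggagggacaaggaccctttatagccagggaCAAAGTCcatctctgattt
Akp3, chr1:87124784-87124953, plus strand: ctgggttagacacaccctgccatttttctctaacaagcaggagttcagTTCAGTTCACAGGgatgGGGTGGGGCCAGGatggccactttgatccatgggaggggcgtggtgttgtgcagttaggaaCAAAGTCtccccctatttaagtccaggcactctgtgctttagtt
Alppl2, chr1:87089929-87090098, minus strand: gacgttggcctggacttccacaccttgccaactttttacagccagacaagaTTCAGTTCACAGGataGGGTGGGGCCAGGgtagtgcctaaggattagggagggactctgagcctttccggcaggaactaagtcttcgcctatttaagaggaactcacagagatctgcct

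Both shared runs are 13 bases long. They were chosen as the longest runs common to the promoters of Alpi, Akp3 and Alppl2. Presence there was fixed by that choice, and the counts of promoters that hold either run include these promoters. TTCAGTTCACAGG began at position -94 of Alpi, -122 of Akp3 and -119 of Alppl2, counted back from the start. Searched on both strands, it was present in 9 of 32851 RefSeq promoters of the same 250 bases (0.0274%). GGGTGGGGCCAGG began at -77 of Alpi, -105 of Akp3 and -103 of Alppl2 and was present in 15 of these promoters (0.0457%). Its first letters GGGTGGGG, a box of the kind bound by KLF and Sp factors, were also present at -94 of the second start of Alpl, and 9.05% of all promoters held them. CAAAGTC was present at -19 of Alpi, -44 of Akp3 and -214 of the first of the 2 starts listed for Alpl, and was held by 3.84% of all promoters. It had no exact match in the 250 bases of Alppl2. The longer form CAAAGTCCA, which overlaps CAAAGTC, matched in the promoter of Alpi and in 0.384% of all promoters. The first promoter of Alpl had 68.4% G and C with 20 CpG pairs, whereas that of Alpi had 54.4% G and C with 0 CpG pairs. These matches describe the letters of the reference sequence, and binding was not measured.

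Reads of these genes could largely be told apart by sequence. The longest GENCODE M21 transcripts of Alpi and Akp3 were 81.5% identical over 1635 aligned bases, those of Alpi and Alppl2 81.9% and those of Alpi and Alpl 64%. Of the stretches of 50 bases in the Alpi transcript, 1.53% occurred in that of Akp3, and 0% of the stretches of 100 bases did. No other gene listed overlaps Alpi, Akp3 or Alpl, and a long noncoding RNA that overlaps Alppl2 held 13 reads over the 10 libraries.

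Between 10949420 and 24470409 reads per library lay on genes. Only 12242 genes were detected in control mouse 2 and 12601 in MYO5B-knockout mouse 3, against 17309 to 18267 in the other 8 libraries, and 17.4% and 18% of their reads were mitochondrial, against 1.98% to 3.5%. Both are called the low-detection libraries. Xist reached 8.41 FPKM (a level per kilobase of gene length and per library total) in MYO5B-knockout mouse 3 and 15.1 FPKM in LPA-treated mouse 1, with 0 reads on Y-linked genes, which goes against their labels as males. The description of LPA-treated mouse 1 names both vehicle and LPA, and its group was taken from its title. Results are therefore also given without these libraries. The targeted gene Myo5b was lower in each of the 7 MYO5B-knockout and LPA-treated libraries (10.3 to 13.6 FPKM) than in each control library (16.5 to 32 FPKM), where 6.2% and 6.38% of all genes tested were lower in these groups with no overlap. Its value of -0.96 for MYO5B-knockout against control mice (log2 fold change) did not pass limma's adjusted p of 0.05 (adjusted p = 0.115). Without the 2 low-detection libraries Myo5b passed with -1.15, where 2.98% of all genes passed as lower. With median of ratios scaling of the libraries it passed with -1.25, where 374 of 15729 genes passed as lower. For LPA-treated against control mice it also passed in these settings, with -1.37 and -1.47. The summed level of 6 enterocyte markers was at least 7750 FPKM in each of the 10 libraries and that of 12 stromal and endothelial markers 0.498 to 11.0 FPKM.

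Alpi was among the most abundant transcripts of the jejunal epithelium. It ranked between 49 and 682 among the 35275 genes by FPKM, which is scaled per length. Control mice 2, 4 and 5 expressed Alpi at 109, 540 and 426 FPKM. The 4 MYO5B-knockout mice, in the order 3, 5, 6 and 7, expressed it at 170, 1005, 1081 and 878 FPKM. Levels were 1264, 1108 and 274 FPKM for LPA-treated mice 1, 4 and 5. Means were 359 ± 224 FPKM in control mice (SD, n = 3), 783 ± 418 FPKM in MYO5B-knockout mice (SD, n = 4) and 882 ± 533 FPKM in LPA-treated mice (SD, n = 3). Each group thus held 1 library well below the others, and the groups overlapped through these low libraries. They were backed by 2808, 4339 and 8517 reads on Alpi in control mouse 2, MYO5B-knockout mouse 3 and LPA-treated mouse 5, so counting error is small beside the difference between mice. Without the 2 low-detection libraries, the range was 426 to 540 FPKM in control and 878 to 1081 FPKM in MYO5B-knockout mice.

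Akp3 was lower than Alpi in each of the 10 libraries and varied far more between mice. Its levels were 0, 47.9 and 3.91 FPKM for control mice 2, 4 and 5. They were 4.57, 349, 181 and 64.0 FPKM for MYO5B-knockout mice 3, 5, 6 and 7. LPA-treated mice 1, 4 and 5 expressed Akp3 at 571, 124 and 2.19 FPKM. These values overlapped between all 3 groups, with the top in an LPA-treated mouse and the bottom in a control mouse. Control mouse 2 had 0 reads on Akp3, which allows up to 0.162 FPKM (3 reads) for counting error, whereas LPA-treated mouse 1 had 23483 reads. Within the LPA-treated group alone, the level in mouse 1 was 261 times that in mouse 5. The within-group SD of the log2 of FPKM + 0.1 was 3.71 for Akp3, the 9th largest among 15729 genes tested, whose median was 0.78. That of Alpi was 1.25, rank 2925.

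**Figure D1:**
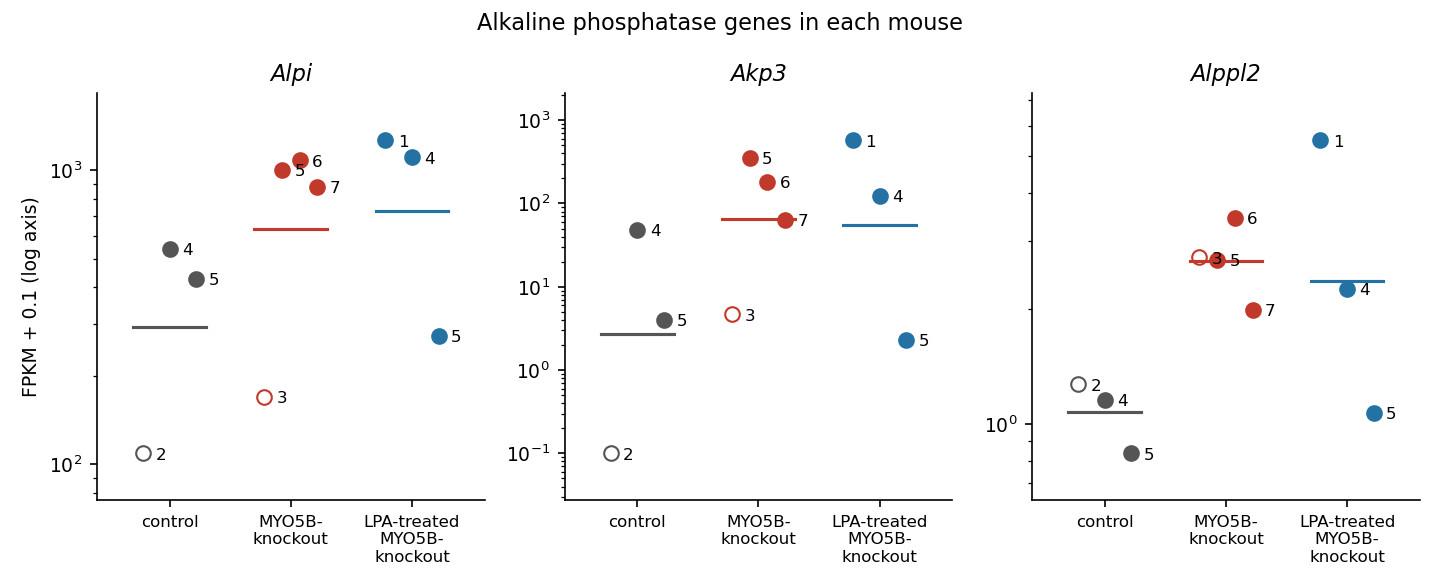
FPKM + 0.1 on a log axis for Alpi, Akp3 and Alppl2 in each library, with the mouse number beside each point. Lines are the group means on the log scale, and open points are the low-detection libraries, control mouse 2 and MYO5B-knockout mouse 3. Alpi spans 109 to 1264 FPKM and Akp3 0 to 571 FPKM, and in both the groups overlap.

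Mice with more Alpi also had more Akp3. Over the 10 libraries, Pearson's r between their log2 levels was 0.95, and it was 0.95 over the 8 libraries without the 2 low-detection libraries. These are descriptions over libraries that share depth, RNA quality and cell makeup as well as groups. The span of Akp3 exceeded that of Alpi. As a share of the summed FPKM of Alpi and Akp3, Akp3 took 0%, 8.14% and 0.909% in control mice 2, 4 and 5, where the 0 reads of control mouse 2 allow a share of up to 0.148%. It took 2.62%, 25.8%, 14.4% and 6.8% in MYO5B-knockout mice 3, 5, 6 and 7, and 31.1%, 10.0% and 0.794% in LPA-treated mice 1, 4 and 5. Shares thus ranged from 0% to 8.14% in control, from 2.62% to 25.8% in MYO5B-knockout and from 0.794% to 31.1% in LPA-treated mice, and the groups overlapped. The log2 ratio of Akp3 to Alpi was 3.51 higher in MYO5B-knockout than in control mice (exact two-sided permutation test, p = 0.171, 4 against 3 mice), in a design whose smallest p is 0.0571. It was 0.47 lower in LPA-treated than in MYO5B-knockout mice, a difference of -0.47 (exact permutation p = 0.8), and 3.04 higher in LPA-treated than in control mice (exact permutation p = 0.3, smallest possible 0.1). The direction of the comparison of LPA with vehicle turned without MYO5B-knockout mouse 5 (0.11) or without LPA-treated mouse 5 (1.11).

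**Figure D2:**
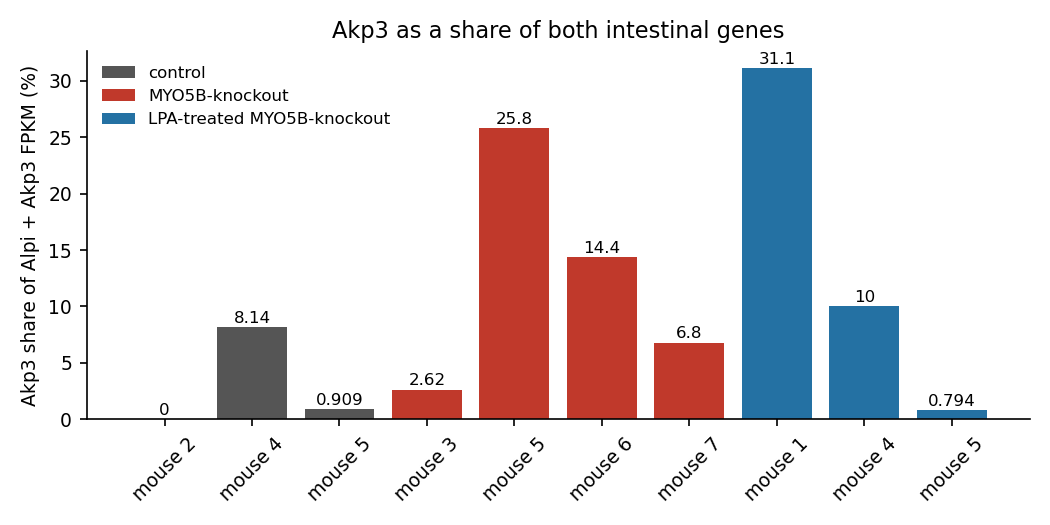
Akp3 as a percentage of the summed FPKM of Alpi and Akp3 in each of the 10 libraries, colored by group. Shares run from 0% in control mouse 2 to 31.1% in LPA-treated mouse 1, and each group holds at least 1 library under 3%.

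Alpl was at the limit of detection. Its reads numbered 0, 0 and 1 in control mice 2, 4 and 5, then 0, 0, 1 and 3 in MYO5B-knockout mice 3, 5, 6 and 7, and 0, 2 and 9 in LPA-treated mice 1, 4 and 5. The mean over the 10 libraries was 0.0408 FPKM, under the minimum of 0.1 FPKM for testing, so Alpl was the 1 member that was not tested, and no fold is given for it because nearly all libraries lay at or under 3 reads. The library with 9 reads, LPA-treated mouse 5 (0.268 FPKM), also had the highest sum of the 12 stromal and endothelial markers, 11.0 FPKM. Their part in this value was not tested. A sum of 10 neutrophil markers, which reached 12.2 FPKM in LPA-treated mouse 4, was 6.89 FPKM in this library.

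Alppl2, the other clustered gene, was low and less variable. Control mice 2, 4 and 5 expressed it at 1.17, 1.06 and 0.737 FPKM. Its levels were 2.62, 2.58, 3.35 and 1.89 FPKM for MYO5B-knockout mice 3, 5, 6 and 7. LPA-treated mice 1, 4 and 5 expressed it at 5.39, 2.15 and 0.969 FPKM. Each MYO5B-knockout library lay above each control library, including the libraries with few genes detected. Its log2 fold change of 1.31 (SE 0.55) between these groups did not pass limma's adjusted p of 0.05 (adjusted p = 0.25), and 11% of all genes tested were likewise higher in MYO5B-knockout mice with no overlap.

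In the comparison of MYO5B-knockout with control mice, where loss of the motor, tamoxifen and the vehicle cannot be told apart, neither intestinal gene passed the test. The log2 fold change of FPKM + 0.1 was 1.11 for Alpi (SE 0.81, 95% confidence interval -0.68 to 2.91, limma's adjusted p = 0.514). It was 4.62 for Akp3 (SE 2.32, 95% confidence interval -0.52 to 9.77, limma's adjusted p = 0.334). The fit thus leaves room for a small fall as well as for a rise of both genes, and the value of Akp3 depends on the pseudocount because control mouse 2 had 0 reads (3.48 with a pseudocount of 1 and 5.73 with 0.01). Leaving out control mouse 2 alone gave 0.40 for Alpi and 2.25 for Akp3. On recovered reads Akp3 had 2.87 with edgeR and 2.85 with DESeq2. Of all genes tested, 2.01% passed in this comparison (316 of 15729), so 0 of 2 tested members is no departure from the background. The median of all genes was itself 0.29, and 0.04 with median of ratios scaling of the libraries, under which Alpi had 0.82 and Akp3 4.56. Without the 2 low-detection libraries, the values were 1.04 for Alpi (limma's adjusted p = 0.288) and 3.52 for Akp3 (limma's adjusted p = 0.296). Without MYO5B-knockout mouse 3 and LPA-treated mouse 1, they were 1.75 (limma's adjusted p = 0.165) and 5.90 (limma's adjusted p = 0.152).

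LPA was compared with vehicle in MYO5B-knockout mice to ask whether it altered the knockout epithelium. No difference was detected for either gene. Alpi differed by 0.20 (SE 0.81, 95% confidence interval -1.60 to 1.99, limma's adjusted p = 1) and Akp3 by -0.28 (SE 2.32, 95% confidence interval -5.42 to 4.87, limma's adjusted p = 1). Intervals this wide include changes of more than 1 on the log2 scale in either direction. In limma, 0% of all genes passed, with 459 at an unadjusted p under 0.05, and edgeR called 0 and DESeq2 7 genes. The direction rested on single mice. Alpi turned to -0.44 when MYO5B-knockout mouse 3 was left out, to -0.20 when LPA-treated mouse 1 was and to -0.11 when LPA-treated mouse 4 was. Akp3 turned to 0.53 when MYO5B-knockout mouse 5 was left out, to 0.21 when mouse 6 of that group was, and to 2.01 when LPA-treated mouse 5 was. Without MYO5B-knockout mouse 3 and LPA-treated mouse 1 together, Alpi differed by -0.84 and Akp3 by -3.25.

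LPA-treated mice and control mice did not differ past the threshold either. This comparison shares its control libraries with the first and its LPA-treated libraries with the second. Alpi differed by 1.31 (SE 0.87, 95% confidence interval -0.61 to 3.23, limma's adjusted p = 0.479) and Akp3 by 4.35 (SE 2.48, 95% confidence interval -1.15 to 9.85, limma's adjusted p = 0.415), where 2.32% of all genes passed. Without control mouse 2 the differences were 0.60 and 1.97. Without LPA-treated mouse 5 they were 2.02 and 6.63, and without LPA-treated mouse 1 that of Akp3 was 2.65.

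**Figure D3:**
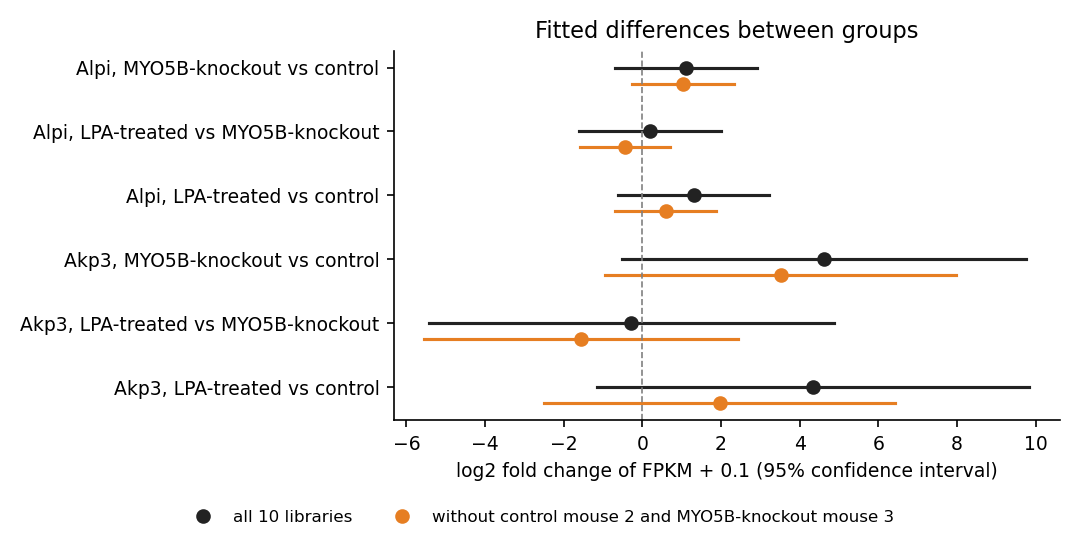
Log2 fold changes of FPKM + 0.1 with 95% confidence intervals for Alpi and Akp3 in the 3 comparisons, from all 10 libraries (black) and without the 2 low-detection libraries (orange). Each interval includes 0, and those of Akp3 are the wider ones, from -0.52 to 9.77 between MYO5B-knockout and control mice.

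Other enzymes of the brush border had lower values in MYO5B-knockout mice, which sets the alkaline phosphatases beside their neighbors on the membrane. Of 20 other brush border hydrolases, 19 were tested and 19 had negative log2 fold changes in MYO5B-knockout against control mice, with a median of -1.42 against 0.29 for all genes. Of these, 3 passed limma's adjusted p of 0.05, where 0.884% of all genes passed as lower. Lct, the lactase of milk sugar digestion, fell by 8.32 on the log2 scale, from 185 to 1.40 FPKM (limma's adjusted p = 0.00935). Ggt1, a gamma-glutamyl transferase, fell by 1.67 (limma's adjusted p = 0.0323), and the peptidase gene Naaladl1 fell by 2.99 (limma's adjusted p = 0.0379). In LPA-treated against control mice the same 19 genes had negative values, with a median of -1.54, and 4 passed, where 0.776% of all genes passed as lower, the fourth being the metalloprotease gene Mep1a with -3.29 (limma's adjusted p = 0.045). Without the 2 low-detection libraries, 7 and 15 hydrolases passed in these comparisons, where 2.98% and 4.94% of all genes passed as lower. The aminopeptidase gene Anpep, the most abundant of the list, had a value of -1.15 between MYO5B-knockout and control mice and did not pass (limma's adjusted p = 0.293).

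The balance between Alpi and these hydrolases within a library was compared after the values had been seen. The log2 ratio of Alpi to the mean log2 level of the 19 hydrolases was 0.74, 1.53 and 0.92 in control mice 2, 4 and 5. It was 4.13, 5.43, 4.05 and 3.92 in MYO5B-knockout mice 3, 5, 6 and 7, and 5.65, 5.02 and 4.41 in LPA-treated mice 1, 4 and 5. The control libraries thus stood apart from the others, including those in which Alpi itself was low. The ratio was 3.32 higher in MYO5B-knockout than in control mice (exact two-sided permutation test, p = 0.0571, the smallest that 4 against 3 mice allow) and 3.97 higher in LPA-treated than in control mice (exact permutation p = 0.1, also the smallest possible). This is not particular to Alpi, since 67.4% of all genes tested had a higher ratio to the hydrolase mean in MYO5B-knockout mice with no overlap, and 84.5% did in LPA-treated mice against control mice. For Akp3 the same ratio was 6.82 higher in MYO5B-knockout than in control mice (exact permutation p = 0.0571). Against Anpep alone, the ratio of Alpi was 2.27 higher on the log2 scale (exact permutation p = 0.0571), with values of -3.85 to -1.92 in control mice and -1.03 to 0.48 in MYO5B-knockout mice, and 48.8% of all genes tested likewise had a higher ratio to Anpep with no overlap. Between LPA-treated and MYO5B-knockout mice the ratio of Alpi to the hydrolase mean differed by 0.65 (exact permutation p = 0.286).

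**Figure D4:**
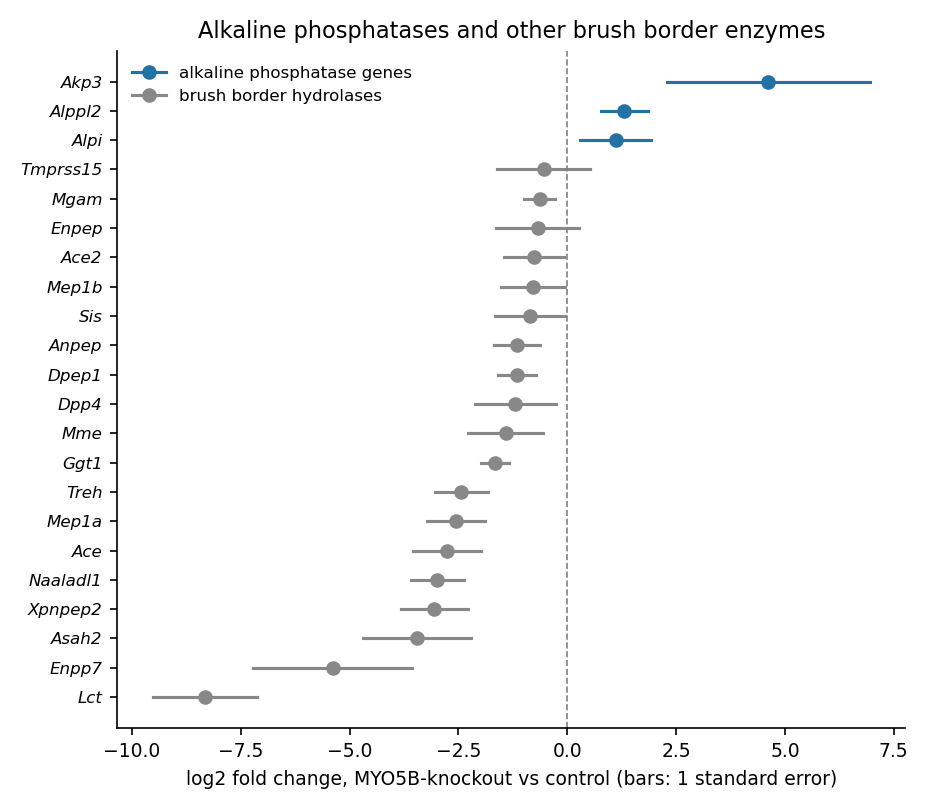
Log2 fold changes between MYO5B-knockout and control mice for 19 brush border hydrolases (gray) and for Akp3, Alppl2 and Alpi (blue), with bars of 1 standard error. The 19 hydrolases lie below 0 and the 3 alkaline phosphatase genes above it, at 4.62, 1.31 and 1.11, of which 0 passed the test.

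Markers of cell types were read in the same comparison. The summed level of the 6 enterocyte markers was 19642 to 26570 FPKM in control, 7750 to 17938 FPKM in MYO5B-knockout and 10421 to 21862 FPKM in LPA-treated mice. Control and MYO5B-knockout mice thus did not overlap in this sum, where 6.2% of all genes tested were lower with no overlap. Of the 6 genes, 3 had positive and 3 had negative log2 fold changes between these groups, with a median of -0.33, and 0 passed. Of 13 leukocyte markers tested, 4 were lower in MYO5B-knockout mice and passed, where 0.884% of all genes did, and the summed level of 14 markers was 343 to 477 FPKM in control, 20.1 to 142 FPKM in MYO5B-knockout and 36.4 to 57.4 FPKM in LPA-treated mice. The 8 proliferation markers had positive values in MYO5B-knockout mice, with a median of 1.21, and 0 passed. Their sum was 84.5 to 115 FPKM in control, 191 to 307 FPKM in MYO5B-knockout and 147 to 230 FPKM in LPA-treated mice. Between MYO5B-knockout and control mice, 11% of all genes tested were likewise higher with no overlap. The part of these markers in the levels of Alpi and Akp3 was not tested. In bulk RNA, fewer cells of a type and less RNA per cell cannot be told apart.

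The enzymes that make and attach the GPI anchor, which alkaline phosphatases need to reach the surface, mostly did not pass the test. Of 27 tested, 1 was higher in MYO5B-knockout mice and 0 were lower, where 1.13% of all genes passed as higher, with a median of 0.23, close to the 0.29 of all genes. The 1 gene was Pgap1, which removes the acyl chain from the inositol of a new anchor and rose by 2.82, from 1.42 to 10.6 FPKM (limma's adjusted p = 0.00475). Of 20 other GPI-anchored surface proteins, 9 had positive and 11 negative values, with a median of -0.15, and 2 passed as higher and 0 as lower. The 2 that passed were the urokinase receptor gene Plaur, which rose by 4.03 from 1.63 to 27.8 FPKM (limma's adjusted p = 0.000292), and Ly6d, which rose by 5.81 from 2.11 to 109 FPKM (limma's adjusted p = 0.0274). Without the 2 low-detection libraries, 3 and 4 genes of these lists passed, where 1032 of 15821 genes tested did. The same 3 genes passed as higher in LPA-treated against control mice, where 1.54% of all genes did.

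Genes that handle the substrates and products of alkaline phosphatase were mixed. Of 9 genes of phosphate and pyrophosphate handling, 1 passed between MYO5B-knockout and control mice, where 2.01% of all genes did. Enpp1, which makes pyrophosphate from nucleotides outside the cell, rose by 2.35 (limma's adjusted p = 0.0166). Between LPA-treated and control mice 2 of these genes passed as higher, where 2.32% of all genes passed. They were Enpp1 with 2.87 (limma's adjusted p = 0.00724) and the phosphate transporter gene Slc20a2 with 2.03 (limma's adjusted p = 0.0195). Between MYO5B-knockout and control mice, Slc20a2 had 1.35 without the 2 low-detection libraries (limma's adjusted p = 0.0461). With all 10 libraries it had 1.38 and did not pass (limma's adjusted p = 0.0668). Of 3 genes of pyridoxal phosphate metabolism tested, 0 passed, and Pdxk, the pyridoxal kinase gene, had a value of -0.96. Of 11 genes of extracellular nucleotide hydrolysis, 0 passed. Enpp7, which is on this list and on that of the brush border hydrolases, had 143, 8.70 and 0.428 FPKM as means of control, MYO5B-knockout and LPA-treated mice (limma's adjusted p = 0.16 between the first 2 groups). Without the 2 low-detection libraries, Enpp7 passed between LPA-treated and control mice with -9.09 (limma's adjusted p = 0.00783), where 4.94% of all genes passed as lower. Nt5e had a value of 1.76 between MYO5B-knockout and control mice. Lipopolysaccharide is a substrate of the intestinal enzyme, and of 10 genes that sense it or flagellin 0 passed, with values of -1.81 for Lbp and 1.18 for Irak1. Of 5 acid phosphatase genes, 0 passed, and Acp6 and Acp5 had values of -0.81 and -0.71. Without the 2 low-detection libraries, Acp6 passed with -1.23 (limma's adjusted p = 0.024).

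Akp3 is a gene of the proximal small intestine, so regional markers were read beside it. Of 8 proximal markers tested, 1 rose and 1 fell between MYO5B-knockout and control mice, where 1.13% of all genes passed as higher and 0.884% as lower. Cybrd1, the iron reductase of the duodenum, rose by 3.31 on the log2 scale (limma's adjusted p = 0.031), with arithmetic means of 0.212 FPKM in control and 3.15 FPKM in MYO5B-knockout mice. Lct fell as given above. Of 8 distal small intestine and colon markers, 0 passed, with values of -2.27 for Aqp8 and 2.20 for Slc10a2. Without the 2 low-detection libraries, Slc10a2 passed with 2.16 (limma's adjusted p = 0.0164), as 1 of 2 distal markers that did. In that setting 2 proximal markers passed as well, where 1032 of 15821 genes tested did. The median was 0.21 for the proximal and -0.65 for the distal markers.

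Of 19 transcription factors tied to the expression of intestinal alkaline phosphatase, 1 passed between MYO5B-knockout and control mice, where 2.01% of all genes did. Vdr, the vitamin D receptor, fell by 1.62, from 63.0 to 21.6 FPKM (limma's adjusted p = 0.0485), and was also lower in LPA-treated mice (-1.90, limma's adjusted p = 0.0326). Pearson's r between Vdr and Alpi was -0.13 over the 10 libraries. The core motif of Hnf4a, a nuclear receptor of enterocyte genes, lies in the promoters of Alpi and Akp3 shown above and in 3.84% of all promoters. A box of the kind bound by KLF and Sp factors lies in both promoters too, and in 9.05% of all promoters. Hnf4a had levels of 40.8, 189 and 146 FPKM for control mice 2, 4 and 5. For MYO5B-knockout mice 3, 5, 6 and 7 they were 30.6, 197, 246 and 243 FPKM, and for LPA-treated mice 1, 4 and 5 they were 244, 124 and 56.1 FPKM. The 3 libraries with the least Alpi were thus also the 3 with the least Hnf4a. This was not particular to Hnf4a, since the same 3 libraries had the least of the enterocyte marker Vil1, the brush border hydrolase gene Sis and Acp6. Pearson's r between the log2 levels of Alpi and Hnf4a was 0.90 over the 10 libraries and 0.76 over the 8 without the 2 low-detection libraries. For Akp3 and Hnf4a it was 0.81 and 0.75. Hnf4a was not alone among the 19 factors. With Alpi, r over the 10 libraries was 0.91 for Sp1, 0.89 for Sp3, 0.89 for Gata4 and -0.64 for Cdx2, and over the 8 libraries it was 0.80, 0.73, 0.75 and -0.73. For Klf4, also among the 19 factors, r with Alpi was 0.76 over the 10 libraries and 0.10 over the 8. With Akp3, Klf4 had r of 0.61 and 0.05. Apoa4, a chylomicron apolipoprotein of enterocytes, was low in the same 3 libraries, at 120, 58.3 and 185 FPKM against 2139 to 2905 FPKM in the other 7. LPA-treated mouse 5 had 17748 genes detected, 13324912 reads on genes and 3.5% mitochondrial reads, the fewest reads and the highest mitochondrial share of the 8 libraries outside the low-detection ones. The part of these measures in its values was not tested.

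**Figure D5:**
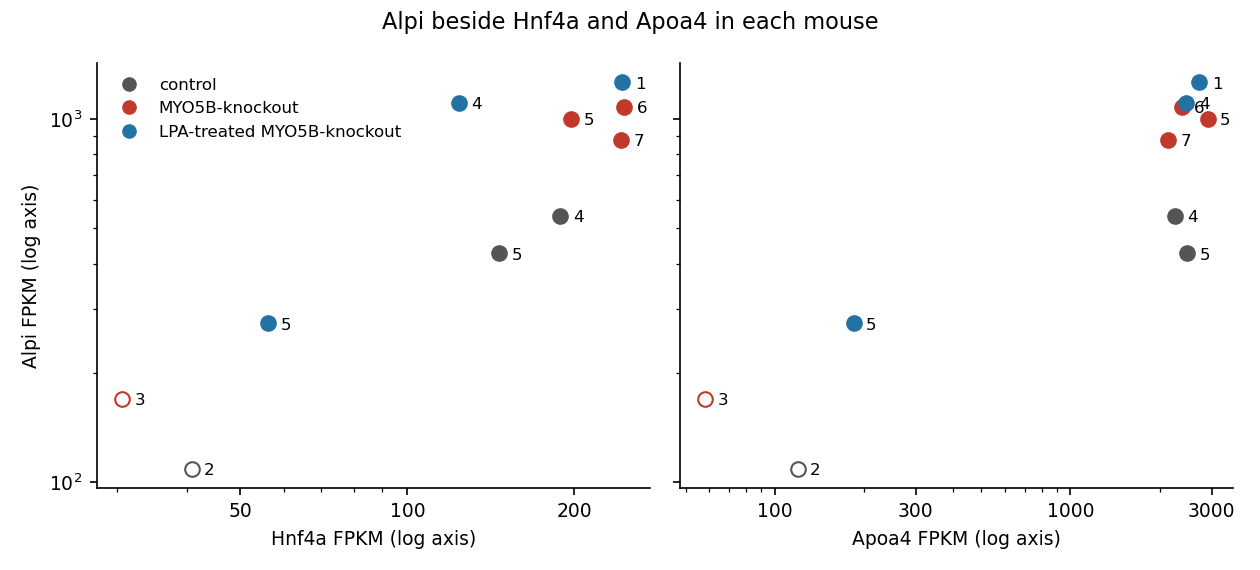
FPKM of Alpi against FPKM of Hnf4a (left) and Apoa4 (right) on log axes, with 1 point per library, the mouse number beside it and the color of its group. Open points are the 2 low-detection libraries. These and LPA-treated mouse 5 lie at the low end of all 3 genes, with Alpi between 109 and 274 FPKM.

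Among 10574 genes whose mean reached 1 FPKM, the 5 most like Alpi across the 10 libraries were Ocln (Pearson's r = 0.99), Arpc1b (0.99), Nsdhl (0.98), Gpd2 (0.98) and Snrnp35 (0.98). Those most like Akp3 were Trim16 (0.98), Dcun1d3 (0.97), Snrnp35 (0.97), Idi1 (0.97) and Rin2 (0.97). Such values were common, since 982 genes had r of at least 0.9 with Alpi and 481 with Akp3. Over the 8 libraries without the 2 low-detection libraries, these counts were 173 and 202. No such list was made for Alpl, which had 16 reads in all.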

How the data were processed

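The authors aligned reads to the mouse genome (GRCm38/mm10) and counted them per gene, with STAR 2.5, TopHat, HTSeq 0.6.1 and DESeq2 named in the submitters' processing notes. They deposited FPKM per gene and library, and read counts for a few genes. FPKM times gene length gave whole reads for 100% of values (within 0.1), equal to 63 of 63 deposited read counts. The other deposited columns hold the authors' comparisons and were not used, and 1 per-sample column that the labels could not place was left out. Levels were compared as log2(FPKM + 0.1) over the 15729 genes whose mean over all libraries reached 0.1 FPKM, in a single limma 3.58.1 model of 3 groups (R 4.3.3, trended variance, two-sided, Benjamini-Hochberg adjustment over all genes, threshold 0.05). edgeR 4.0.16 and DESeq2 1.42.0 on the recovered reads were alternatives. Ratios within a library were compared by exact permutation (SciPy 1.17.1), and transcripts aligned with Biopython 1.88. Limma's fold changes are differences of group means of log2(FPKM + 0.1), whereas levels given beside them are arithmetic means, so the 2 need not match. Counting limits cover counting error only. Nothing states litters or batches, so p-values measure the spread between these mice. Members and gene lists were chosen with earlier results of these data known. Named were the members, Alppl2, Myo5b and, of each pathway list, the genes that passed in any comparison (at most 6), otherwise the 2 with the largest change between MYO5B-knockout and control mice. Anpep, Hnf4a, Sp1, Sp3, Klf4, Gata4, Cdx2, Apoa4, Vil1 and Sis were named after their values were seen. A gene that this rule names is not reported here.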

Additional observations from a re-analysis of the deposited data

Results flagged for a closer look

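Within the MYO5B-knockout group, the only group of 4, 32 reported values were examined for a library far from the others, and 2 were found, close to what a rate of 1 in 20 would give. Acp6, an acid phosphatase gene, was at 6.56 FPKM in MYO5B-knockout mouse 3 against 16.3 to 17.9 FPKM in the other 3 mice. The log2 ratio of Alpi to the brush border hydrolase mean was 5.43 in MYO5B-knockout mouse 5 against 3.92 to 4.13 in the other 3 mice.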

How the results depend on the processing

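Alpi and Akp3 passed the test in none of the alternatives, and both stayed higher in MYO5B-knockout and in LPA-treated mice than in control mice in each of them. Leaving out single mice moved Alpi between 0.40 and 1.75 and Akp3 between 2.25 and 6.70 for MYO5B-knockout against control, and between 0.60 and 2.02 and 1.97 and 6.63 for LPA-treated against control mice. For LPA-treated against MYO5B-knockout mice these ranges were -0.44 to 0.90 for Alpi and -1.97 to 2.01 for Akp3. In that comparison, Alpi turned to -0.44 with control mouse 2 and MYO5B-knockout mouse 3 left out and to -0.84 with MYO5B-knockout mouse 3 and LPA-treated mouse 1 left out, and Akp3 turned to 0.68 with edgeR and 0.67 with DESeq2. The log2 ratio of Akp3 to Alpi ranged from 1.85 to 5.15, from -1.77 to 1.11 and from 1.38 to 4.67 in the 3 comparisons. That of Akp3 to the hydrolase mean between LPA-treated and MYO5B-knockout mice ranged from -1.43 to 2.07, and was -0.55 and -2.16 without the pairs of libraries named above. With a block for the mouse number (replicate block), Alpi turned to -1.46 and Akp3 was -6.71 between LPA-treated and MYO5B-knockout mice, they were 1.66 and 6.99 between MYO5B-knockout and control mice and 0.20 and 0.28 between LPA-treated and control mice, and 0 genes passed in any comparison. Same numbers are not stated to mean shared mice or days, and deviations correlated at 0.10 for number 4 and between -0.36 and 0.30 for number 5.

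Genes past the threshold between MYO5B-knockout and control mice numbered 188 with no filter, 598 with median of ratios scaling (224 higher and 374 lower, against 177 and 139), 804 with quantile normalization, 50 with 2 groups only, 1032 without control mouse 2 and MYO5B-knockout mouse 3, 1830 with DESeq2 and 44 to 448 without single mice. Between LPA-treated and control mice they numbered 626 with quantile normalization, 190 with 2 groups only, 1579 without those 2 libraries, 1489 with DESeq2 and 75 to 719 without single mice. Between LPA-treated and MYO5B-knockout mice, DESeq2 called 7 and limma 0, also without single mice. The causes were not tested. With no filter on low values, Alpl did not pass in any comparison either (smallest limma adjusted p = 0.483).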
